A study of Mus musculus with 6 samples.

Results

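The 8 genes described here encode the enzymes of the hepatic urea cycle and the enzymes that bring ammonia and glutamate to it. They were chosen by gene name (Nags, Cps1, Otc, Ass1, Asl, Arg1, Gls2 and Glud1) from the 34745 genes of the expression table, by a rule that names genes and uses no threshold on their values. Liver RNA was sequenced from WT mice that had fasted for 12 hours and then received acetaminophen (APAP, 300 mg/kg, intraperitoneal injection, 12 hours) or saline. The Methods name male C57BL/6J mice aged 8 to 10 weeks. Of 6 samples, 5 libraries were analysed here, namely APAP replicates 1 and 3 (APAP1 and APAP3) and the saline libraries WT1, WT2 and WT3, whose names match no single saline sample and which stand for that group here since all other columns carry the name of APAP. APAP replicate 2 was not analysed here. Nothing in the labels states that the libraries came from separate mice, so the p-values measure the spread between these libraries.

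The urea cycle turns toxic ammonia into urea, and the liver is the organ in which the complete cycle runs. It starts in the mitochondria of hepatocytes and ends in the cytosol, and its enzymes are most abundant in periportal hepatocytes, which receive blood from the gut first. Ammonia that escapes them is caught as glutamine by a narrow rim of hepatocytes around the central vein. APAP overdose injures the centrilobular zone, where the drug is oxidized to its reactive metabolite.

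The total count was between 13378445 and 15976339 per library. TMM normalization factors were 1.27 and 1.09 in APAP1 and APAP3 and 0.783, 0.980 and 0.938 in WT1, WT2 and WT3. Relative to library size only, TMM thus lowered the levels of both APAP libraries and raised those of every saline library. The genes described here together held 0.941% and 0.619% of the total count with APAP and 0.816% to 1.09% with saline, which overlapped. Their summed level after TMM did not overlap, at 7398.9 and 5681.5 CPM with APAP and 10428 to 11127 CPM with saline. Sex-linked genes separated the groups. Xist was at 0.764 and 1.73 normalized CPM with APAP and at 289.6 to 914 with saline, while the Y-linked gene Ddx3y had 1344 and 998 counts with APAP and at most 1 count with saline. The saline libraries thus had the sex-linked pattern of female mice and the APAP libraries that of male mice, which for the saline libraries goes against the male mice named in the Methods. Sex and treatment cannot be told apart for any value given here. The hepatocyte markers Alb, Ttr, Apoa1, Apob, Fgb and Hnf4a were present in every library, with a summed level of 76570 and 118800 CPM with APAP and of 118860 to 162250 CPM with saline. Most of this sum was Alb, and without it, a sum chosen after the data were seen, the groups overlapped, at 25025 and 28999 CPM with APAP and 23755 to 33129 CPM with saline. The log2 fold changes of Apoa1 (0.57) and Fgb (0.77) were positive, and those of the other 4 markers were negative.

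APAP livers held less mRNA of several urea cycle genes, but the enzymes did not move as a block. Ass1, Otc, Nags and Gls2 fell, Cps1 and Asl lay below every saline library in normalized CPM without passing the test, and Arg1 and Glud1 overlapped between the groups. All 8 genes were kept by the filter on low counts, which left 13734 genes for edgeR's quasi-likelihood test, with p-values adjusted over all of them by the Benjamini-Hochberg method. At an adjusted p under 0.05, 4 of the 8 were lower with APAP and 0 were higher (by an unadjusted P under 0.05 with a fold change of at least 1.5, 6 were lower and 0 higher). Of all tested genes, 3.53% were called lower and 7.23% were called in either direction at the adjusted p, and by the fold change and unadjusted P 11.2% were lower and 23.5% were called in either direction. The median log2 fold change of the 8 genes was −1.07, against 0.03 for all tested genes. In 6 of the 8, both APAP libraries lay below all 3 saline libraries after TMM normalization, a pattern found in 20.1% of tested genes, while 44.1% were apart in either direction. For Cps1 this depended on the scaling, as given below. The number of members called was 0 without APAP1, 1 without APAP3 or without WT2, and 3 without WT1 or without WT3, in fits in which 235, 401, 165, 510 and 922 of all genes were called in that order. With scaling to library size only, 3 members were called (Ass1, Otc and Gls2), and the median of all tested genes moved to 0.42. In bulk tissue, fewer hepatocytes and less RNA per hepatocyte cannot be told apart.

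**Figure D1:**
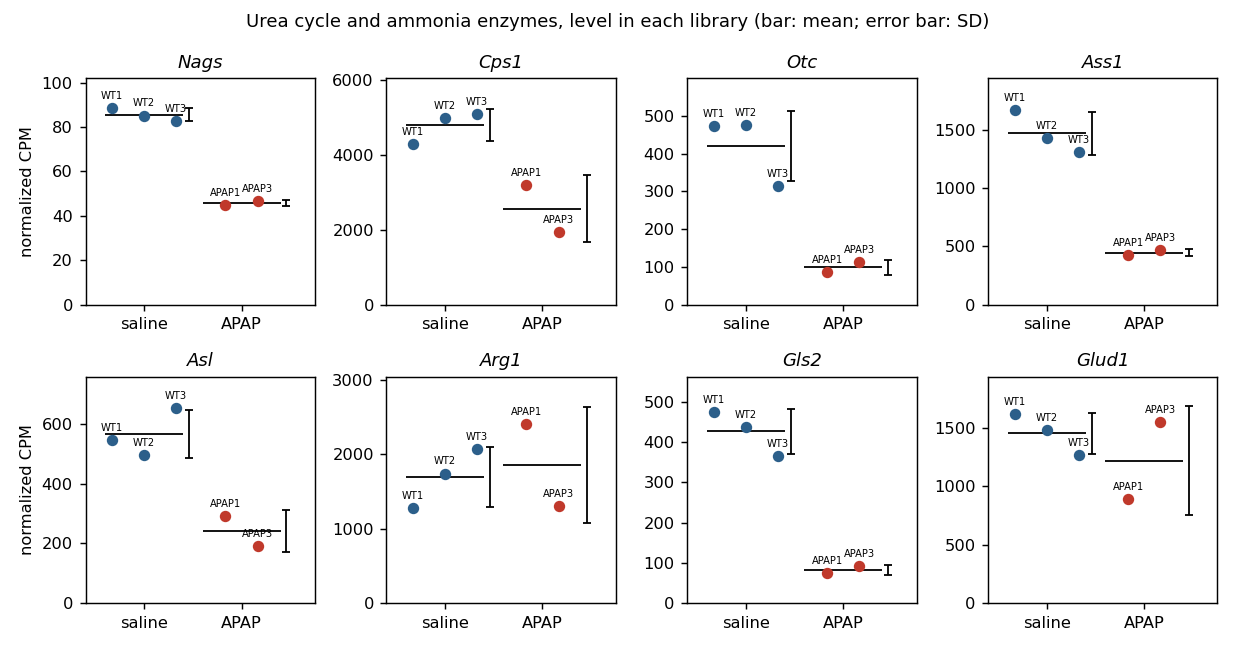
Normalized CPM (vertical axis, from 0) of each gene in the 3 saline libraries (blue) and the 2 APAP libraries (red), with the group mean as a line and the SD as an error bar. Points of the groups are apart for all genes but Arg1 and Glud1, and the APAP points of Gls2 sit at 73.7 and 91.8 CPM under saline points of 367 to 475 CPM.

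Nags (ENSMUSG00000048217, chromosome 11 of GRCm38, 102145513 to 102149477, plus strand) encodes N-acetylglutamate synthase, which makes the obligate activator of carbamoyl phosphate synthetase. Its level was 44.8 and 46.5 CPM in APAP1 and APAP3 and 88.7, 85.2 and 82.8 CPM in WT1, WT2 and WT3. The libraries within each group lay close together, and the groups were apart. Nags fell from 85.6 ± 2.97 CPM (SD over 3 saline libraries) to 45.7 ± 1.25 CPM (SD over 2 APAP libraries) (log2 fold change −0.91, standard error (SE) 0.19, adjusted p = 0.0400 by edgeR's quasi-likelihood test). The call was lost in each of the 5 fits without 1 library, with log2 fold changes of −0.95 to −0.87. An antisense gene within Nags, Gm11586, had 17 to 35 counts where Nags had 753 to 1282, and the strand setting of the counting is not given in the sources used here.

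Cps1 (ENSMUSG00000025991, chromosome 1, 67123026 to 67231259, plus strand) encodes the mitochondrial carbamoyl phosphate synthetase, which commits ammonia to the cycle. It was the most abundant of the 8 genes in counts, with 54267 and 31130 counts with APAP and 47867, 74994 and 75919 with saline. After normalization it reached 3189 and 1924 CPM in the APAP libraries, against 4290, 4982 and 5072 CPM in the saline libraries. Both APAP libraries were then below the saline libraries, but APAP1 lay 1.66-fold above APAP3. This separation depended on the scaling, since APAP1 had more Cps1 counts than WT1 at a smaller total count (13378445 against 14259730). The log2 fold change was −0.90 (SE 0.37, 95% interval −1.77 to −0.04), with an unadjusted P of 0.0434 and an adjusted p of 0.186 by edgeR's quasi-likelihood test, so Cps1 did not pass. It was nearly equal in size to that of Nags, which had the smaller spread. With scaling to library size only, the log2 fold change of Cps1 was −0.49 (adjusted p = 0.365 by the same test). Scaled to the hepatocyte markers, an alternative chosen after the data were seen, it was −0.45 (adjusted p = 0.458).

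Otc (ENSMUSG00000031173, chromosome X, 10252305 to 10321024, plus strand) encodes ornithine transcarbamylase, which joins carbamoyl phosphate to ornithine to give citrulline. Its level was 85.0 and 112 CPM with APAP and 473, 476 and 314 CPM with saline. Even the lowest saline library, WT3, was well above both APAP libraries. Otc fell to 23.4% of the saline mean, with means of 421 ± 92.5 CPM (SD over 3 saline libraries) and 98.6 ± 19.2 CPM (SD over 2 APAP libraries) and −2.10 as log2 fold change (SE 0.31, adjusted p = 0.0150 by edgeR's quasi-likelihood test). Otc was called in 2 of the 5 fits without 1 library, and not without APAP1, APAP3 or WT2, while its log2 fold change stayed between −2.32 and −1.91. It is the X-linked gene of the cycle, in libraries whose Xist level differed between the groups, and the part of this difference in its value was not tested.

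Ass1 (ENSMUSG00000076441, chromosome 2, 31470207 to 31520672, plus strand) encodes argininosuccinate synthetase, which brings aspartate, the carrier of the other nitrogen of urea, into the cycle. It reached 422 and 466 CPM in the APAP libraries and 1669, 1430 and 1307 CPM in the saline libraries. The APAP libraries lay close together and far below the saline libraries. Ass1 fell to 30.3% of its saline mean, which was 1468 ± 184 CPM (SD over 3 libraries), with 444 ± 31.0 CPM (SD over 2 libraries) after APAP and −1.72 as log2 fold change (SE 0.29, adjusted p = 0.0201 by edgeR's quasi-likelihood test). The call was lost without APAP1, without APAP3 and without WT2, with log2 fold changes of −1.81 to −1.61 over the 5 fits that each left out 1 library.

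The count of Ass1 is shared with a copy of the gene. Of the 50-base words of the longest Ass1 coding transcript, 55.3% occur in another transcript, with the processed pseudogene Gm5424 (ENSMUSG00000046687, chromosome 10, 62071015 to 62072609) sharing most. In turn, 76.5% of the words of Gm5424 occur in Ass1. Gm5424 was listed with more counts than Ass1 in every library, 10227 and 10907 with APAP and 25465 to 32331 with saline, so the level of Ass1 itself is uncertain. Gm5424 fell by nearly the same factor, with −1.73 as log2 fold change (adjusted p = 0.0212). With the counts of both genes added together, an alternative chosen after the data were seen, the level was 1024 and 1140 CPM with APAP and 3201 to 3950 CPM with saline, with −1.72 as log2 fold change (SE 0.31, adjusted p = 0.0266 by the same test).

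Asl (ENSMUSG00000025533, chromosome 5, 130011258 to 130029247, minus strand) encodes argininosuccinate lyase, which releases arginine and fumarate. Its level was 291 and 192 CPM with APAP and 548, 497 and 654 CPM with saline, and the groups did not overlap. The log2 fold change was −1.23 (SE 0.30, 95% interval −1.93 to −0.52), and the adjusted p of 0.0561 by edgeR's quasi-likelihood test was just above the threshold. In the likelihood ratio test (adjusted p = 0.0104), the exact test of edgeR (0.0116), DESeq2 (0.000229) and under both other filters on low counts (0.0400 and 0.0487), Asl was called lower. It was not called under any other scaling, with log2 fold changes of −0.81 with library size only and −0.77 scaled to the hepatocyte markers. Nor was it called without WT1, without WT2 or without WT3. Over the 5 fits that each left out 1 library, its log2 fold change was −1.55 to −0.97.

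Arg1 (ENSMUSG00000019987, chromosome 10, 24915208 to 24927470, minus strand) encodes liver arginase, which splits arginine into urea and ornithine and closes the cycle. Its level was 2407 and 1303 CPM with APAP, against 1270, 1739 and 2068 CPM with saline. APAP1 had the highest level of all 5 libraries and APAP3 lay near the bottom of the saline range. The log2 fold change was 0.13 (SE 0.38, 95% interval −0.78 to 1.04, adjusted p = 0.870 by edgeR's quasi-likelihood test), and was −0.37 without APAP1 and −0.02 without WT1. Arg1 is also made by myeloid cells. The summed level of 8 neutrophil markers was 116 and 74.7 CPM with APAP and 4.03 to 8.28 CPM with saline, and that of 9 monocyte and macrophage markers was 341 and 261 CPM against 135 to 173 CPM. The latter difference rested on Cd14 (206 and 52.2 CPM against 2.86 to 13.9 CPM), since without it, a sum chosen after the data were seen, the groups overlapped, at 135 and 208 CPM against 122 to 167 CPM. The part of these cells in the Arg1 level was not tested.

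Gls2 and Glud1 supply the cycle with nitrogen. Gls2 (ENSMUSG00000044005, chromosome 10, 128194457 to 128210004, plus strand) encodes the liver form of glutaminase, a periportal mitochondrial enzyme that frees ammonia from glutamine. Its level was 73.7 and 91.8 CPM with APAP and 475, 439 and 367 CPM with saline, and it fell furthest of the 8 genes. The means were 82.7 ± 12.8 CPM (SD, n = 2) and 427 ± 55.1 CPM (SD, n = 3), so that APAP livers held 19.4% of the saline level. On the log2 scale the fold change was −2.37 (SE 0.27, adjusted p = 0.00629 by edgeR's quasi-likelihood test), which was called in 4 of the 5 fits without 1 library and missed the threshold without APAP1 (log2 fold change −2.21, adjusted p = 0.0582). The 3′ end of Gls2 overlaps the 3′ end of the opposite-strand gene Spryd4, which had 613 and 515 counts with APAP and 269 to 384 with saline, against 1254 and 1485 and 5299 to 6605 for Gls2.

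Glud1 (ENSMUSG00000021794, chromosome 14, 34310727 to 34345144, plus strand) encodes mitochondrial glutamate dehydrogenase, which interconverts glutamate with ammonia and α-ketoglutarate. Its level was 886 and 1546 CPM with APAP and 1614, 1478 and 1263 CPM with saline. APAP1 lay below the saline libraries and APAP3 lay within them. The log2 fold change of −0.26 (SE 0.34, 95% interval −1.06 to 0.55) had an adjusted p of 0.690 by edgeR's quasi-likelihood test. The sign turned without APAP1 (0.09) and with scaling to library size only (0.12). Of the 50-base words of Glud1, 8.17% occur in other transcripts, mostly of Glud-ps.

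**Figure D2:**
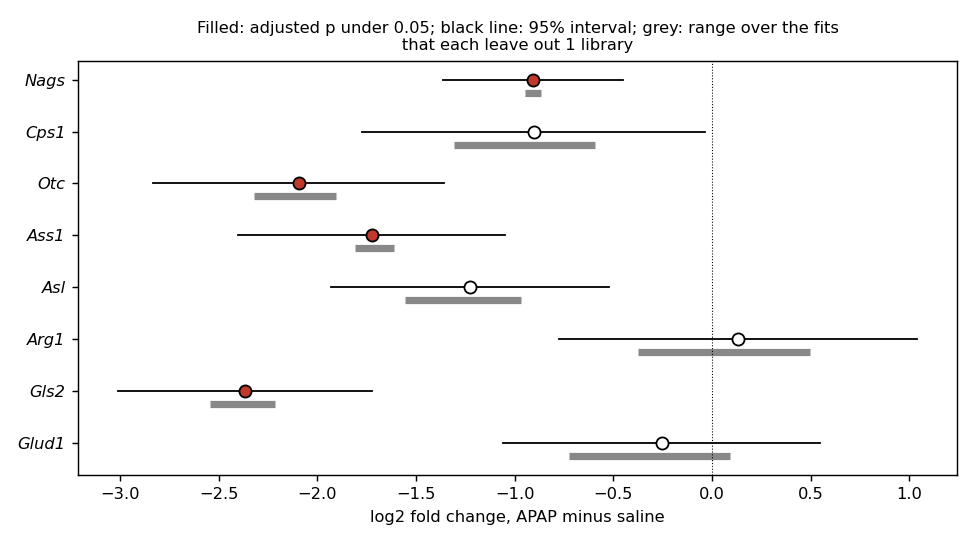
Fitted log2 fold change of APAP minus saline (horizontal axis) for each gene, with its 95% interval as a black line and the range over the 5 fits that each leave out 1 library as a grey bar. The filled points, Nags, Otc, Ass1 and Gls2, had an adjusted p under 0.05, and the grey bars of Arg1 (−0.37 to 0.50) and Glud1 (−0.72 to 0.09) cross 0.

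Sequence before the gene start is shown for Otc and Ass1, which fell strongly, for Nags, which fell less, and for Glud1, whose groups overlapped, so that the promoters can be read beside the values. These are the 4 members with an entry in the RefSeq promoter table (GRCm38.p6). Each line gives up to 250 bases, all on the plus strand and 5′ to 3′, and stops before every annotated start of the gene. Capitals mark a GC box (GGGCGG, the site of Sp1 family factors) on either strand. The coordinates are chr2:31470020-31470206 for Ass1, chrX:10252055-10252229 for Otc, chr11:102145263-102145512 for Nags and chr14:34310477-34310726 for Glud1.
Ass1: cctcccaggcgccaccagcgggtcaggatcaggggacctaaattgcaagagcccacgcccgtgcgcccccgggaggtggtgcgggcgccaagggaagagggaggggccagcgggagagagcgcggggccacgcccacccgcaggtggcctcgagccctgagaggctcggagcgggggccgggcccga
Otc: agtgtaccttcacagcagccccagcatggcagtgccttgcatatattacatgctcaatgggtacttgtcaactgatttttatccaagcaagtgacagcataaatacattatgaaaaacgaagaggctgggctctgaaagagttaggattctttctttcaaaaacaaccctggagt
Nags: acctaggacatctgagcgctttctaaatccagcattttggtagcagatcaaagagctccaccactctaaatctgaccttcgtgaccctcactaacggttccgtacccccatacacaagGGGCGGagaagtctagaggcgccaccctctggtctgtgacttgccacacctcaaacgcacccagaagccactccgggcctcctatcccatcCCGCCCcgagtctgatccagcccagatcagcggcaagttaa
Glud1: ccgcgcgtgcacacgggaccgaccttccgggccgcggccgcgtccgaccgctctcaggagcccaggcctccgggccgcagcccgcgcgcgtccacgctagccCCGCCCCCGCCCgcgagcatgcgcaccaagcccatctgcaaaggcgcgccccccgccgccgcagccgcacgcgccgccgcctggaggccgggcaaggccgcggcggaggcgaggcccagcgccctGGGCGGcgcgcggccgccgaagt

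The 4 windows differed in base composition. Over the full 250 bases before the RefSeq start, G and C made up 75.6% in Ass1, 43.6% in Otc, 55.6% in Nags and 82% in Glud1, with a median of 52.4% over 32851 promoter windows of the same length. The GC box was found in Ass1 (63 to 58 bases before the RefSeq start, in the stretch not printed), in Nags at 2 places and in Glud1 at 3 places, and in 32.7% of all windows. The other motifs searched, on both strands, were the TATA box (TATAAA, in 12.4% of all windows), the CCAAT box (CCAAT, 33.85%), the core of the CREB site (TGACG, 17.8%), sites of C/EBP (TTNNGCAA, 9.56%), HNF4 (CAAAGTCC, 1.20%) and FOXO and FOXA (TGTTTAC, 3.17%), and the core of the glucocorticoid receptor site (TGTTCT, 16.1%). None of these letters was found in the 4 windows, and Otc held none of the 8 motifs. The marked sites did not overlap each other.

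Since a common factor scales all genes of a library alike, the counts were also read relative to Cps1 within each library. Arg1 reached 75.5% and 67.7% of the Cps1 count in APAP1 and APAP3 and 29.6%, 34.9% and 40.8% in WT1, WT2 and WT3. On the log2 scale this ratio was 1.04 higher with APAP. The log2 fold change of Cps1, the denominator, was −0.90, and that of Arg1 was 0.13. Gls2 was at 2.31% and 4.77% of the Cps1 count with APAP against 7.23% to 11.1% with saline, and Otc at 2.67% and 5.83% against 6.20% to 11.0%. Ass1 was at 13.2% and 24.2% against 25.8% to 38.9%. The ratios of these 4 genes did not overlap between the groups, and those of Asl, Nags and Glud1 did. Of all tested genes, 65.2% had ratios to Cps1 that did not overlap, so this separation is not particular to the 4 genes. With 2 against 3 libraries there are 10 ways to assign them, so an exact permutation test cannot give a one-sided p under 0.1 and none was made.

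**Figure D3:**
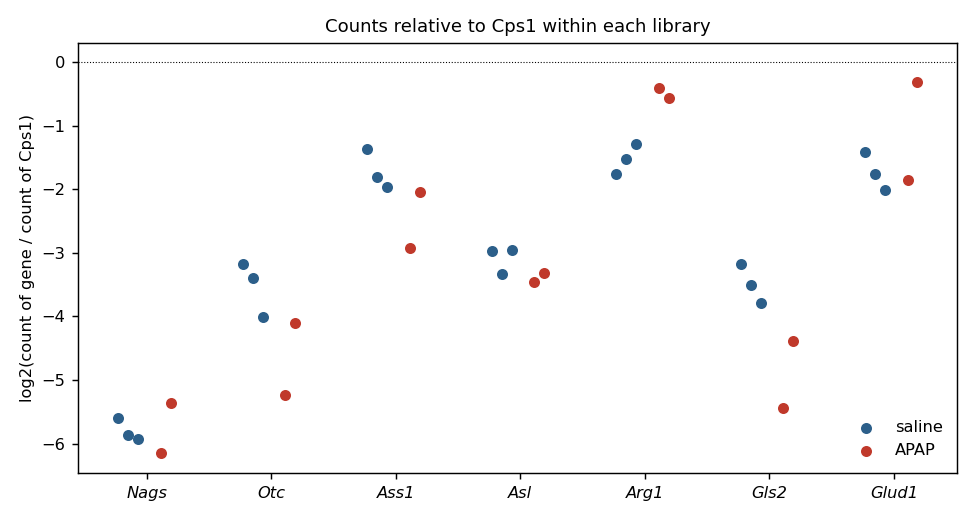
Log2 of the count of each gene divided by the count of Cps1 in the same library (vertical axis), for saline (blue) and APAP (red) libraries. Arg1 is nearer to Cps1 in both APAP libraries than in any saline library, Gls2, Otc and Ass1 are farther from it, and the APAP points of Glud1 lie far apart. Of all tested genes, 65.2% had ratios to Cps1 that did not overlap between the groups.

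The 2 APAP libraries differed from each other in opposite ways. Cps1, Asl and Arg1 were higher in APAP1 than in APAP3, by 1.66-fold, 1.51-fold and 1.85-fold, while Glud1, Otc and Gls2 were at 0.573, 0.758 and 0.803 of the APAP3 level. Glud1 was thus at 27.8% of the Cps1 count in APAP1 and at 80.3% in APAP3. Nags and Ass1 differed least, by 1.04-fold and 1.10-fold. Among the saline libraries the highest level was between 1.07-fold (Nags) and 1.63-fold (Arg1) above the lowest.

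Levels were compared between genes only as CPM per kilobase of exon, with the union of the exons in GENCODE M21 as length. In saline livers the order was Cps1 at 861 ± 77.0 (SD, n = 3), Arg1 at 760 ± 180, Ass1 at 608 ± 76.3, Glud1 at 345 ± 42.0, Gls2 at 123 ± 15.9, Asl at 117 ± 16.6, Otc at 99.3 ± 21.8 and Nags at 30.2 ± 1.05 CPM per kilobase. The libraries of Cps1 and Arg1 overlapped, as did those of Arg1 and Ass1, of Gls2 and Asl, of Gls2 and Otc, and of Asl and Otc. In APAP livers the order was Arg1 at 832 ± 350 (SD, n = 2), Cps1 at 460 ± 161, Glud1 at 289 ± 111, Ass1 at 184 ± 12.8, Asl at 50.1 ± 14.5, Gls2 at 23.8 ± 3.69, Otc at 23.2 ± 4.52 and Nags at 16.1 ± 0.441 CPM per kilobase. Arg1 was above Cps1 in each of the APAP libraries. With the length of the longest coding transcript instead, the order changed at several places. In saline livers Arg1 (1146 CPM per kilobase) and Ass1 (866) were then above Cps1 (861), and Asl (235) was above Gls2 (166). In APAP livers Otc (32.9) was then above Gls2 (32.2). The Ass1 levels leave out the reads listed under its copy Gm5424, which had more counts than Ass1 in every library. The place of Ass1 in these orders, and its overlap with Arg1, is therefore uncertain.

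**Figure D4:**
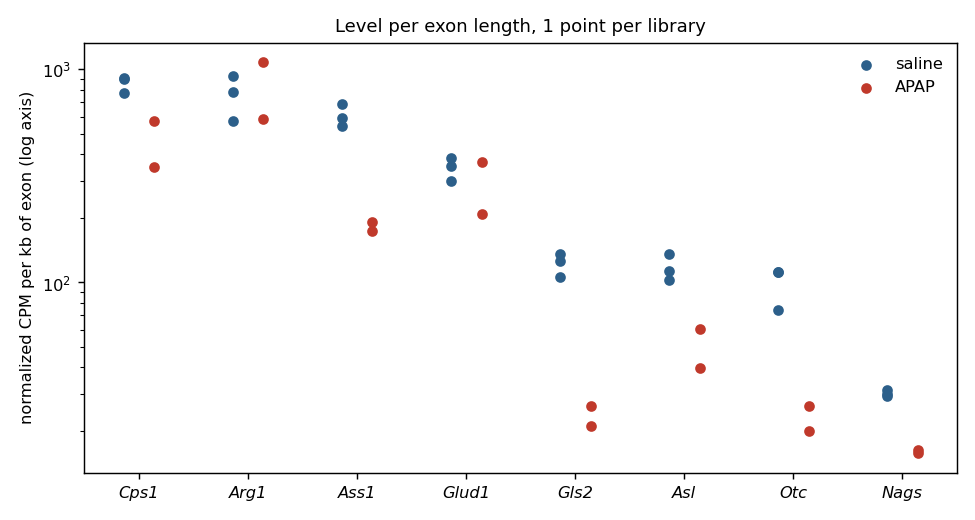
Normalized CPM per kilobase of exon on a log axis, 1 point per library, for saline (blue) and APAP (red), with genes in the order of their saline mean. The genes span from 30.2 (Nags) to 861 (Cps1) in saline livers, and the APAP points of Gls2, Otc and Ass1 are separated from the saline points by the widest gaps. The Ass1 points leave out the reads listed under Gm5424.

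The likeness of profiles was measured as the root mean square difference of log2 CPM over the 5 libraries, after each gene was centred on its own mean. Among the members the closest pair was Otc and Gls2 (0.18), followed by Cps1 and Asl (0.20), and the farthest was Arg1 and Gls2 (1.31). Outside the 8 genes, 7851 genes whose mean reached 10 CPM were compared. The nearest to Ass1 were Gm5424 (0.04), its copy, then Dpyd and Agxt (0.04 and 0.05). Those nearest to Cps1 were 0610005C13Rik, Celsr1 and Hfe2 (0.05 to 0.09), to Asl Bhmt2, Hfe2 and AU022252 (0.10 to 0.14), and to Arg1 Camta2, Gpatch11 and Mprip (0.07 to 0.09). Bco2, Hibadh and Camk1d were nearest to Otc (0.12), Ces1c, Ugt1a9 and Parp16 to Gls2 (0.11 to 0.14), Eif4b, Rmnd5a and Hint3 to Nags (0.05), and Qpctl, Stard3 and Khdrbs3 to Glud1 (0.04 to 0.08). These distances rest on 5 libraries in 2 groups and are descriptions.

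Genes that carry metabolites to and from the cycle, or that handle ammonia beside it, were read as a list of 19, of which 5 were lower and 0 higher at the adjusted p. Of all tested genes, 3.53% were called lower. The median log2 fold change of the list was −0.82, against 0.03 for all tested genes. Car5a, the mitochondrial carbonic anhydrase that supplies bicarbonate to Cps1, fell from 30.7 to 67.0 CPM in saline libraries to 5.64 and 11.7 CPM with APAP (log2 fold change −2.53, adjusted p = 0.0261 by edgeR's quasi-likelihood test). Slc38a4, an amino acid transporter, fell with a log2 fold change of −1.69 (adjusted p = 0.0249). Genes of the ammonia-scavenging hepatocytes around the central vein were also among the 5. Glul, the glutamine synthetase, was at 102 and 82.95 CPM after APAP, against 965 to 1491 CPM with saline (log2 fold change −3.74, adjusted p = 0.00376 by the same test). Oat, the ornithine aminotransferase, had a log2 fold change of −4.50 (adjusted p = 0.0105), and Rhbg, an ammonium transporter, of −4.62 (adjusted p = 0.00559). Slc25a15, which exchanges ornithine and citrulline across the mitochondrial membrane, was at 362 and 186 CPM against 434 to 842 CPM and did not pass (adjusted p = 0.159). Arg2, the arginase isoform that prevails in other organs, was at most at 1.24 CPM in any library.

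Of 15 enzymes that release ammonia or break down amino acids, 4 were lower and 0 higher, with a median log2 fold change of −1.10. For all tested genes the share called lower was 3.53% and the median was 0.03. Cth, which cleaves cystathionine, fell furthest, from 1203 to 1435 CPM with saline to 74.4 and 75.3 CPM with APAP (log2 fold change −4.12, adjusted p = 0.00183 by edgeR's quasi-likelihood test). Prodh, which oxidizes proline, fell by 2.31 on the log2 scale. The glycine cleavage genes Amt and Gldc fell by 1.47 and 1.10. Sds and Hal, which deaminate serine and histidine in periportal hepatocytes, did not pass (adjusted p = 0.175 and 0.375).

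Genes that use arginine or ornithine outside the cycle moved in both directions, with 2 higher and 1 lower of 16 tested, 3.70% of all tested genes being called higher. Odc1, the ornithine decarboxylase that opens polyamine synthesis, rose from 41.9 to 55.4 CPM with saline to 203 and 156 CPM with APAP (log2 fold change 1.85, adjusted p = 0.00908 by edgeR's quasi-likelihood test). Srm, the spermidine synthase, rose by 1.01 on the log2 scale (adjusted p = 0.0477). Oat, named above, was the gene that fell. Nos2 and Pycr1 did not pass the filter on low counts, and Pycr3 was not found under that name.

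Of 16 transcription factors and receptors with known links to hepatic nitrogen or fasting metabolism, Cebpa and Klf15 were lower and 0 were higher. Among all tested genes, 3.53% were called lower and 3.70% higher. Cebpa, a factor of hepatocyte differentiation, was at 109 and 86.1 CPM after APAP, against 205 to 287 CPM with saline (log2 fold change −1.35, adjusted p = 0.0330 by edgeR's quasi-likelihood test). Klf15, a glucocorticoid-responsive factor that controls amino acid breakdown, fell by 1.99 on the log2 scale (adjusted p = 0.0451). Creb1, the factor that binds cyclic AMP response elements, was at 25.3 and 31.2 CPM against 2.87 to 12.2 CPM and did not pass (adjusted p = 0.0668).

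Lists of zonation markers were read in the same way. Of 15 pericentral genes, 12 fell and 0 rose, with a median log2 fold change of −2.504, while 3.53% of all tested genes were called lower. Those called were Glul, Oat, Rhbg, Slc1a2, Cyp2e1, Cyp1a2, Cyp2a5, Cyp27a1, Lgr5, Gulo, Rgn and Aldh3a2. Of 14 periportal genes apart from the 8 members, Cyp2f2, Pigr, Fbp1 and Etnppl fell, Sox9 rose, and the median was −1.15. Cyp2f2, a cytochrome P450 of periportal hepatocytes, was at 192 and 299 CPM against 609 to 1022 CPM (log2 fold change −1.61, adjusted p = 0.0484 by edgeR's quasi-likelihood test), and Etnppl, a phospholyase, fell by 3.57 on the log2 scale. Sox9, a transcription factor of periportal hepatocytes and bile ducts, rose by 3.05 together with Spp1 among 5 ductal markers. The zones were not tested against each other. The lists share Glul, Oat, Rhbg, Arg2, Hal, Sds, Hnf4a and Sox9.

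**Figure D5:**
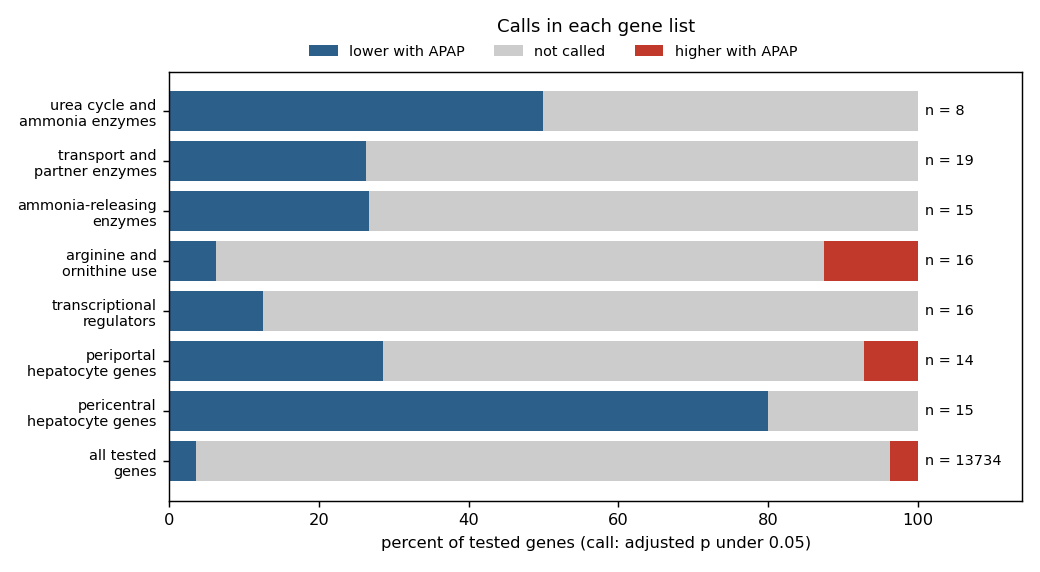
Share of the tested genes of each list (horizontal axis, percent) that were lower (blue), not called (grey) or higher (red) with APAP at an adjusted p under 0.05, with the number tested at the right. The 8 enzymes have 4 lower, the pericentral genes 12 of 15, and all tested genes 3.53% lower and 3.70% higher.

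Markers of other liver cells moved beside these genes. Of 6 tested neutrophil genes, 6 were higher. S100a8, Cxcr2, Retnlg and Ngp passed the filter on low counts only through the APAP libraries, so their direction was largely set by the filter. Ly6g and Mpo were not tested. Ly6g, Mpo, Ngp and Cxcr2 had 0 counts in at least 1 saline library. Of 9 monocyte and macrophage genes 3 were higher, of 6 Kupffer cell genes 0, of 6 endothelial genes 0, of 6 stellate cell genes 1 (Col1a1), of 5 ductal genes 2, and of 3 tested lymphocyte genes 0, with none lower in any of these lists. Of all tested genes, 3.70% were called higher. Among the 3 monocyte and macrophage genes, Chil3 had 2, 3 and 4 counts with saline and 423 and 372 with APAP. Chil3 thus passed the filter only through the APAP libraries, and its direction was largely set by the filter. None of the 6 hepatocyte markers was called at the adjusted p by edgeR's quasi-likelihood test, and 2 of them, Ttr and Hnf4a, were lower by the fold change and unadjusted P. Scaled to the geometric mean of these 6 markers, an alternative chosen after the data were seen, Gls2, Otc and Ass1 remained lower, with log2 fold changes of −1.99, −1.73 and −1.32 and adjusted p of 0.00400, 0.0117 and 0.0212 by the same test. Nags was then at −0.50 (adjusted p = 0.313), while the median of all tested genes was at 0.43.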

How the data were processed

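The raw counts of reads per gene, 1 column for each library, were deposited by the authors, whose methods name HISAT2 for them. The build per the labels is GRCm38 (mm10), and the annotation, strand setting and versions are not given in the sources used here. The 5 columns of FPKM in the same table were not used. The analysis used edgeR 4.0.16 under R 4.3.3, with filterByExpr (minimum count 10, minimum total 15), TMM, glmQLFit and glmQLFTest of APAP against saline over all genes, with Benjamini-Hochberg adjustment. The standard error is the log2 fold change divided by the root of F. CPM use normalized library sizes, and a count of 3, the limit that a count of 0 allows, corresponded to 0.176 to 0.269 CPM. Reads carry no molecular identifiers, so this limit covers counting error only. No pair of libraries within a group was a duplicate (chi-square divided by its degrees of freedom, 43.2 to 92.2). Gene positions were read from the deposited table, and those of Arg1 and Glud1 differ from GENCODE M21, from which exon lengths and 50-base words were taken.

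The members, lists and tests were chosen with earlier results of these data known. Named were all members, in each pathway list the called genes or, where fewer than 3, the smallest P up to 3, and the 3 genes nearest to each member in profile. Slc25a15, Arg2, Sds, Hal, Col1a1, Spp1, Xist, Ddx3y and the single hepatocyte, neutrophil, monocyte and macrophage markers were named after their values were seen. Alternatives were other scalings (size factors, upper quartile, library size), the likelihood ratio and exact tests, DESeq2 1.42.0, other filters and each library left out. Scaling to the hepatocyte markers and adding Gm5424 to Ass1 were chosen after the data were seen.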

Additional observations from a re-analysis of the deposited data

How the results depend on the processing

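Of the 8 genes, Cps1, Ass1, Asl, Otc, Nags and Gls2 kept a negative log2 fold change in all 15 alternatives, and Gls2 had an adjusted p under 0.05 in 14 of them, Ass1 and Otc in 12, Nags in 8, Asl in 5 and Cps1 in 1 (DESeq2, adjusted p = 0.0121). Arg1 turned sign within the fits that leave out 1 library (−0.37 to 0.50), as did Glud1 (−0.72 to 0.094), and Glud1 was at 0.12 with library size only and at 0.087 scaled to the hepatocyte markers. The number of members called was 0 to 3 without 1 library, and by the fold change and unadjusted P it was 3 scaled to the hepatocyte markers. All genes called numbered 993, against 1835 in the likelihood ratio test, 1776 in the exact test, 2093 in DESeq2 and 165 to 922 without 1 library. Of the genes in the 6 pathway and zonation lists, 27 were called, 44 by DESeq2 and 9 to 27 without 1 library. Fits without 1 library have fewer samples, and with 1 APAP library left its spread is assumed to be like that of the saline group. The share of called genes that were higher was 51.2%, and 77.8% with library size only or 75.6% scaled to the hepatocyte markers. No paired analysis was possible because the sources used here name no pairs of saline and APAP mice. The saline columns also could not be matched to the replicate numbers of the labels. The 2 and 3 libraries per group limit the precision, and the 95% intervals of Arg1 (−0.78 to 1.04) and Glud1 (−1.06 to 0.55) do not show that these genes were unaffected.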
